A study of Saccharomyces cerevisiae with 24 samples.

Results

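The genes described here encode proteins of the mitochondrial ribosome of *S. cerevisiae*. They were chosen by name, as the genes on the array whose symbol is MRP, MRPL, MRPS or RSM followed by a number, and 57 of the 4073 named genes met this rule. By the known composition of the ribosome, 23 of them were assigned to the small subunit and 33 to the large subunit. The small subunit count includes *RSM22*, which was placed in no family of ribosomal proteins and whose membership is uncertain. The remaining gene, *MRP8*, was named as a ribosomal protein gene but encodes a protein of uncertain function that is not counted in either subunit. All 57 genes had a value on all 24 arrays and were tested, each from 2 features.

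Expression was measured before (0 min) and 15 min after sodium sulfite was added at 1 mM to cultures with 1 of 4 alleles of *FZF1*, the gene of a zinc finger transcription factor that activates the sulfite pump gene *SSU1*. Besides the full length *S. paradoxus* and *S. cerevisiae* alleles there were reciprocal chimeras. In the C.P. chimera the coding region comes from *S. paradoxus* and the noncoding sequence before it from *S. cerevisiae*, and in the P.C. chimera these origins are swapped. All strains were *S. cerevisiae* of the S288c background in which the native *FZF1* was deleted and the tested allele was integrated at *ura3*, and all were grown in rich medium (YPD) with an acidic tartaric acid buffer. Each of the 8 combinations of allele and time has 3 arrays, which the methods call independent replicates. A pool of all samples served as the second RNA on each array, so a value is the log2 ratio of sample over pool, centered on the median gene of its array. Such ratios do not order genes by their level. No culture without sulfite was measured at 15 min, so sulfite and the 15 min of further growth cannot be told apart, and an array cannot tell less RNA per cell from fewer cells that express a gene. Both times come from the same cultures by the protocol, and the P values below measure only the spread between arrays.

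Mitochondrial ribosomes translate the few proteins encoded by mitochondrial DNA, nearly all of them subunits of the respiratory chain and the ATP synthase. In yeast almost all of their proteins are encoded in the nucleus, translated in the cytosol and imported. Some descend from the proteins of bacterial ribosomes, and others exist only in mitochondria. Many of their mRNAs carry sites for the RNA binding protein Puf3, and their abundance in yeast is known to vary with carbon source and stress.

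One array goes against its label. For *FZF1*, replicate 2 of the *S. cerevisiae* allele at 0 min read −3.63, whereas the other 5 arrays of that allele read between −0.11 and 1.01. This lies within the range of the 12 arrays labelled with the *S. paradoxus* coding region, −5.57 to −2.47, on which the probes also bind a diverged sequence. The top of that range is replicate 3 of the C.P. chimera, at −2.90 at 0 min and −2.47 at 15 min, and the next array is at −3.92. *URA3* was high on these C.P. arrays, at 1.34 and 2.30, and read 1.20 on the array that goes against its label. It read 1.17 on replicate 3 of the P.C. chimera at 15 min, and −1.97 to 0.52 on all other arrays. The array that goes against its label was kept in its labelled group, and the main counts and medians that rest on it are also given without it. In every group the sample was labelled with Cy5 on 1 array and with Cy3 on the other 2.

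The mitochondrial ribosomal protein genes changed little in the first 15 min. Averaged over the 4 alleles, 23 of 57 rose and 4 fell, together 47.4%, whereas 79.1% of all 4071 genes tested passed the same test, 39.5% upward and 39.6% downward (limma, adjusted P under 0.05 by Benjamini-Hochberg). The share that rose was thus near that of all genes, and the gap lay in the few that fell. The median response of the 57 genes, 15 min minus 0 min, was 0.17 on the log2 scale, and the median of all genes was 0.01. It was above 0 in 44 of the 57 genes (77.2%, against 50.4% of all genes). The responses were also narrow. For 68.4% of the 57 genes the mean response lay within 0.25 of 0 on the log2 scale, against 28.3% of all genes, and for 93.0% it lay within 0.5, against 53.0%. *MRP8* was the only one of the 57 with a change of 2-fold or more, which 19.9% of all genes had. The standard error of a response had a median of 0.09 for the 57 genes and 0.08 for all genes. On 2 of the 57 genes, *MRP8* and *RSM28*, all 12 arrays at 15 min lay above all 12 at 0 min, whereas 38.6% of all genes had no overlap between the times.

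**Figure D1:**
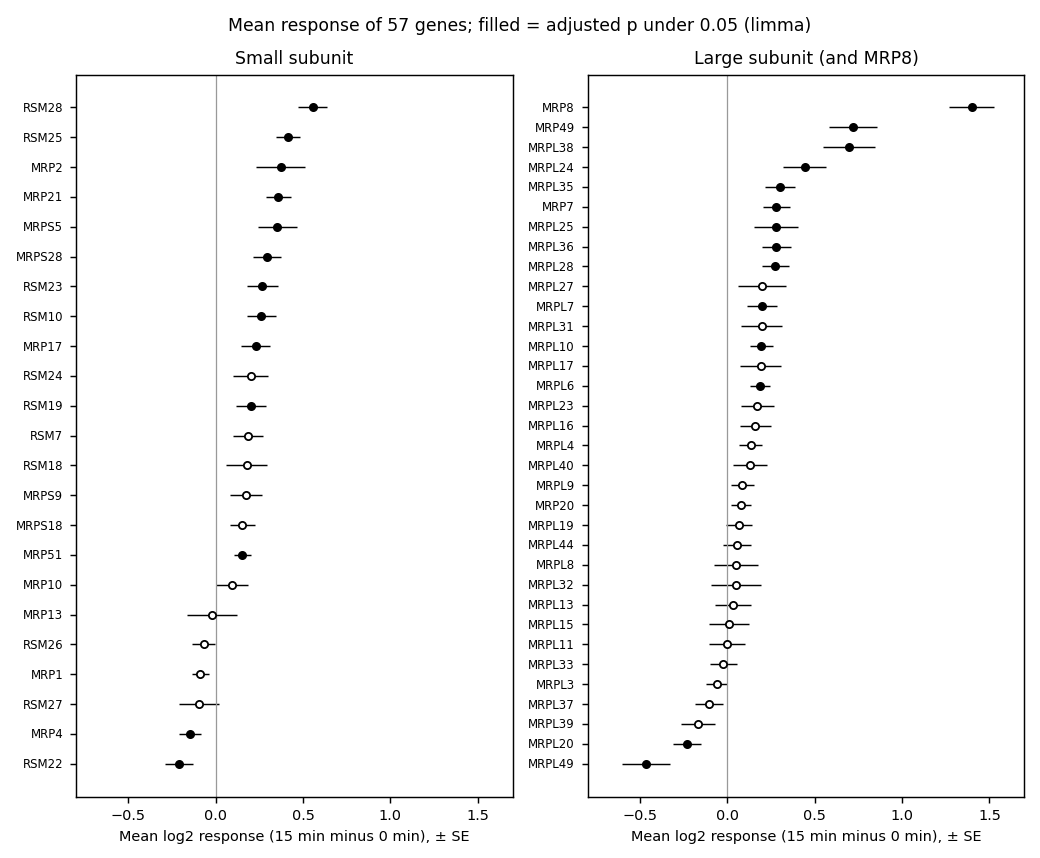
Mean response of each gene on the log2 scale (horizontal axis, 15 min minus 0 min over 4 alleles, with the standard error from limma), small subunit on the left, large subunit with *MRP8* on the right. Filled points passed an adjusted P of 0.05; 13 of 23 small subunit genes and 13 of 33 large subunit genes are filled, and most points of both panels lie between 0 and 0.5.

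Of the 27 calls, 23 were made whichever single array was left out. The other 4, *MRPL7*, *RSM19*, *MRPL25* and *MRP4*, held in 8, 10, 10 and 12 of the 24 cases, and 12 genes that were not called with all arrays were called in at least 1 case. Leaving out all arrays of replicate 1 left 12 genes that rose and 3 that fell, leaving out replicate 2 left 17 and 0, and leaving out replicate 3 gave 27 and 4. Of the genes named below, *MRP2*, *MRPS5* and *MRPL35* lost their call without replicate 1, with adjusted P values of 0.0916, 0.084 and 0.0709, and *RSM22* lost it without replicate 2 (0.0788) or replicate 3 (0.0634). Without the array that goes against its label, 26 genes rose and 4 fell.

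In the small subunit, 11 of 23 genes rose and 2 fell, with a median response of 0.18. The highest was *RSM28*, a mitochondria-specific protein (family mS46) with a possible role in starting translation. *RSM28* ranged from 0.03 to 0.87 on the 12 arrays at 15 min, with a median of 0.30, and from −0.76 to 0.02 on the 12 arrays at 0 min, with a median of −0.20. The ranges did not overlap, and the gene rose by 0.56 ± 0.08 (SE, adjusted P = 3.47e-06). It was the only ribosomal subunit gene called in each of the 4 alleles taken alone.

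*RSM25*, also mitochondria-specific (mS23), followed with a rise of 0.41 ± 0.07 (SE, adjusted P = 1.21e-05). Its arrays ran from 0.03 to 0.71 at 15 min, with a median of 0.18, and from −0.34 to 0.09 at 0 min, with a median of −0.19. Only the top of the 0 min arrays reached the bottom of the 15 min arrays. *MRP2*, the counterpart of bacterial S14 (uS14), rose by 0.37 ± 0.14 (SE, adjusted P = 0.0197), but its arrays overlapped widely, from −0.36 to 0.90 at 15 min and from −0.81 to 0.56 at 0 min. Its 2 features differed by up to 1.24 on 1 array, the largest gap of any of the 57 genes. *MRP21* (bS21), in which mutations can restore translation of mitochondrial mRNAs with damaged leaders, rose by 0.36 ± 0.07 (SE, adjusted P = 0.000113), and *MRPS5* (uS5) by 0.35 ± 0.11 (SE, adjusted P = 0.00741).

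Of the genes counted in the small subunit, the 2 that fell were *RSM22*, which encodes a methyltransferase-like protein needed for the mitochondrial ribosome, and *MRP4* (uS2). *RSM22* ran from −0.51 to 0.41 at 15 min and from −0.16 to 0.58 at 0 min, an overlap of most arrays, and fell by 0.21 on the log2 scale with a standard error of 0.08 (adjusted P = 0.0197). *MRP4* fell by 0.15 on the log2 scale with a standard error of 0.06 (adjusted P = 0.0366), a call that was lost without any 1 of the replicate numbers. The other 3 of the 5 lowest did not pass the test. They were *RSM27* (mS33) at −0.10 ± 0.12, *MRP1* (mS43) at −0.09 ± 0.05 and *RSM26* (mS42) at −0.07 ± 0.07 (SE). Mrp1 and Rsm26 share the fold of superoxide dismutase and sit side by side in the small subunit, and their genes had close values.

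In the large subunit, 11 of 33 genes rose and 2 fell, with a median response of 0.13. The highest were *MRP49* (mL61, mitochondria-specific) and *MRPL38*, the counterpart of bacterial L14 (uL14), which lie on chromosome XI with 1 gene between them in the RefSeq annotation. *MRP49* ran from −0.03 to 1.09 at 15 min, with a median of 0.47, and from −0.80 to 0.19 at 0 min, with a median of −0.17, and rose by 0.72 ± 0.14 (SE, adjusted P = 7.98e-05). *MRPL38* ran from −0.02 to 0.97 at 15 min, with a median of 0.49, and from −0.78 to 0.26 at 0 min, with a median of −0.14, and rose by 0.69 ± 0.15 (SE, adjusted P = 0.000253). For both genes most arrays at 15 min lay above those at 0 min, with overlap from the lowest arrays at 15 min, which were Cy5 arrays of the *S. paradoxus* allele for *MRP49* and of the C.P. chimera for *MRPL38*. The only other pair of the 57 with 3 or fewer genes between them was *RSM27* and *MRPL9*, with 3. Their responses were −0.10 and 0.09, and neither passed the test.

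*MRPL24* (bL28) rose by 0.44 ± 0.12 (SE, adjusted P = 0.00299), *MRPL35* (mL38) by 0.30 ± 0.09 (SE, adjusted P = 0.00315) and *MRP7* (bL27) by 0.28 ± 0.08 (SE, adjusted P = 0.00199). Mrp7 is the counterpart of the bacterial protein that reaches toward the site of peptide bond formation. *MRP20* (uL23), whose protein lies at the exit of the peptide tunnel, was at 0.08 ± 0.06 (SE, adjusted P = 0.202) and did not pass.

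*MRPL49* (bL21) had the lowest mean response of the 57 genes. It ran from −0.64 to 0.66 at 15 min, with a median of −0.13, and from −0.04 to 0.97 at 0 min, with a median of 0.40. Arrays of both times overlapped, since the *S. paradoxus* and C.P. arrays of replicate 1 at 15 min stood at 0.66 and 0.29. It fell by 0.47 on the log2 scale with a standard error of 0.14 (adjusted P = 0.00392), and without all arrays of replicate 2 its response was −0.30 with an adjusted P of 0.155. *MRPL20* (mL58) fell by 0.23 on the log2 scale with a standard error of 0.08 (adjusted P = 0.0142), and without replicate 2 its adjusted P was 0.203. *MRPL39* (bL33), *MRPL37* (mL54) and *MRPL3* (mL44) had lower values still short of the test, −0.17 ± 0.10, −0.10 ± 0.08 and −0.06 ± 0.06 (SE).

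*MRP8* stood apart from the genes of both subunits. On the 12 arrays at 15 min it ran from 0.33 to 1.05, with a median of 0.72, and on the 12 arrays at 0 min from −1.44 to −0.28, with a median of −0.70. The times did not overlap, and the mean rise was 1.40 ± 0.13 (SE, adjusted P = 3.08e-09), a fold of 2.64. The rise was close in the 4 alleles, at 1.47 for the *S. paradoxus* allele, 1.41 for the C.P. chimera, 1.34 for the P.C. chimera and 1.37 for the *S. cerevisiae* allele, each with a standard error of 0.26 and each past the test.

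**Figure D2:**
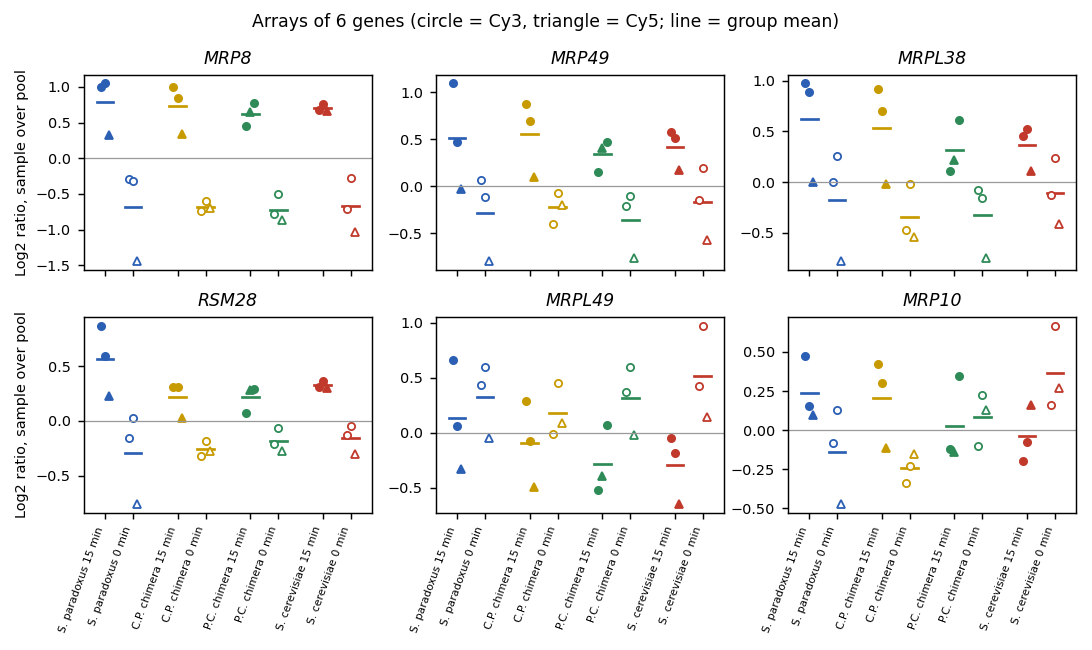
Log2 ratio of sample over pool on each array (vertical axis) for *MRP8*, *MRP49*, *MRPL38*, *RSM28*, *MRPL49* and *MRP10*, by allele, with 15 min (filled) left of 0 min (open) and a line at the mean of 3 arrays; circles are Cy3 arrays and triangles Cy5 arrays. *MRP8* and *RSM28* separate the times on all arrays, and the Cy5 array of the *S. paradoxus* allele at 0 min is the lowest of *MRP8* at −1.44.

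In the small subunit 56.5% of genes were called and in the large subunit 39.4%, both below the 79.1% of all genes. The gap lay mainly in genes that fell, 2 of 23 and 2 of 33, against 39.6% of all genes. Genes that rose were 11 of 23 and 11 of 33, against 39.5% of all genes. The median responses were 0.18 and 0.13, and their difference was not tested. The lower and upper quartiles were 0.04 and 0.28 in the small subunit and 0.03 and 0.20 in the large subunit. On 9 of the 12 arrays at 15 min the median of the small subunit was above that of the large subunit, by 0.05 in the median array, and on 3 of the 12 arrays at 0 min, where the median array had a difference of −0.02. By descent, 8 of 13 small subunit genes with a bacterial counterpart rose and 1 fell (median 0.20), against 3 and 0 of the 9 mitochondria-specific ones (median 0.09). In the large subunit the figures were 7 and 1 of 20 with a bacterial counterpart (median 0.13) and 4 and 1 of 13 mitochondria-specific ones (median 0.19), so the order of the medians was opposite in the subunits. No test was made between these classes.

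With each allele taken alone, fewer genes passed. With the *S. paradoxus* allele 17 of 57 rose and 0 fell (29.8%), against 30.3% of all genes up and 29.7% down, together 59.9%, and the median response was 0.28. With the C.P. chimera 9 rose and 0 fell (15.8%), against 29.3% of all genes up and 29.3% down (58.6%), with a median of 0.17. Fewer still, 4, rose with the P.C. chimera and 0 fell (7.02%), against 28.7% of all genes up and 28.6% down (57.3%), with a median of 0.16. With the *S. cerevisiae* allele 2 rose and 3 fell (8.77%), against 29.0% of all genes up and 29.4% down (58.3%), and the median was 0.01. The genes that rose with the *S. cerevisiae* allele were *MRP8* and *RSM28*, and those that fell were *MRPL49*, *RSM22* and *MRPL20*. Without the *S. cerevisiae* array that goes against its label, 4 genes rose and 0 fell with that allele, the median was 0.06 and 40 of 57 responses were above 0, against 30 of 57 with all arrays, and the responses of *MRPL49*, *RSM22* and *MRPL20* were −0.57, −0.35 and −0.34 with adjusted P values of 0.099, 0.0789 and 0.119. Without replicate 3 at 0 min 1 rose, and without replicate 1 at 0 min 5 fell. The *S. paradoxus* count moved between 8 and 27 when one of its arrays was left out, with 8 without replicate 1 at 15 min, 11 without replicate 2 at 15 min, 9 without replicate 3 at 0 min and 27 without replicate 3 at 15 min. That of the C.P. chimera moved to 1 without replicate 1 at either time, to 2 without replicate 2 at 15 min and to 5 without replicate 2 at 0 min. That of the P.C. chimera moved to 1 without replicate 2 at 15 min and to 2 without replicate 3 at either time.

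The medians within an allele also rested on few arrays. With single arrays or replicate numbers left out, the median ran from 0.14 (without replicate 1 at 15 min) to 0.41 (without replicate 3 at 15 min) for the *S. paradoxus* allele and from 0.11 (without replicate number 1) to 0.28 (without replicate 3 at 15 min) for the C.P. chimera. For the P.C. chimera it ran from 0.00 (without replicate number 3) to 0.25 (without replicate number 1), and for the *S. cerevisiae* allele from −0.08 (without replicate 3 at 0 min) to 0.10 (without replicate number 2), so that the sign was not the same throughout. These ranges overlap between neighboring alleles. They show the weight of single arrays and not the error of a median, and the medians of the alleles were not tested against each other.

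**Figure D3:**
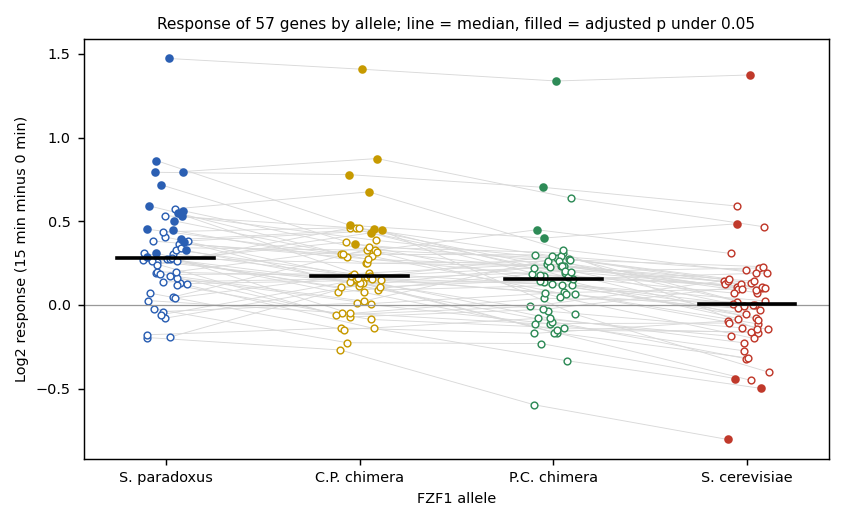
Response of each of the 57 genes (vertical axis, log2, 15 min minus 0 min) with each *FZF1* allele, with grey lines joining a gene, black bars at the medians and filled points for genes with an adjusted P under 0.05. With all arrays the medians are 0.28, 0.17, 0.16 and 0.01 from the *S. paradoxus* allele to the *S. cerevisiae* allele, and *MRP8* is the top point in each column.

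The sign of the response was shared by all 4 alleles in 30 of the 57 genes (52.6%), upward in 27 and downward in 3, whereas 81.7% of all genes had the same sign throughout. Without the array that goes against its label it was shared in 41 (71.9%), upward in 38 and downward in 3, against 82.9% of all genes. Among the 27 genes called in the mean response, 3 had mixed signs. *MRPL25* (mL59) was at 0.44, 0.46 and 0.23 with the *S. paradoxus*, C.P. and P.C. alleles and at −0.01 with the *S. cerevisiae* allele. *RSM19* (uS19) was at 0.27, 0.43 and 0.19 with these alleles and at −0.09 with the *S. cerevisiae* allele, and *RSM22* was at 0.13 with the *S. paradoxus* allele, −0.14 and −0.33 with the chimeras and −0.50 with the *S. cerevisiae* allele. Without the array that goes against its label, *MRPL25* and *RSM19* were at 0.16 and 0.04 with the *S. cerevisiae* allele, above 0 as with the others, and *RSM22* alone kept mixed signs.

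The responses with the full length alleles were then compared directly. The response was higher with the *S. paradoxus* allele than with the *S. cerevisiae* allele in 56 of 57 genes (98.2%, against 52.3% of all genes), with a median difference of 0.28, and *MRP4* at −0.08 was the exception. None of these differences passed the test, and neither did that of any of the 4071 genes (0 called, 0.0%). At an unadjusted P of 0.05, 4 of the 57 genes (7.02%) and 9.6% of all genes fell under the limit, and the smallest adjusted P of the 57 was 0.451. The single differences have standard errors of 0.14 to 0.42, so a difference of the median size was not detectable for 1 gene. The 57 values are not independent of each other either, because the genes moved together from array to array, as described below.

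**Figure D4:**
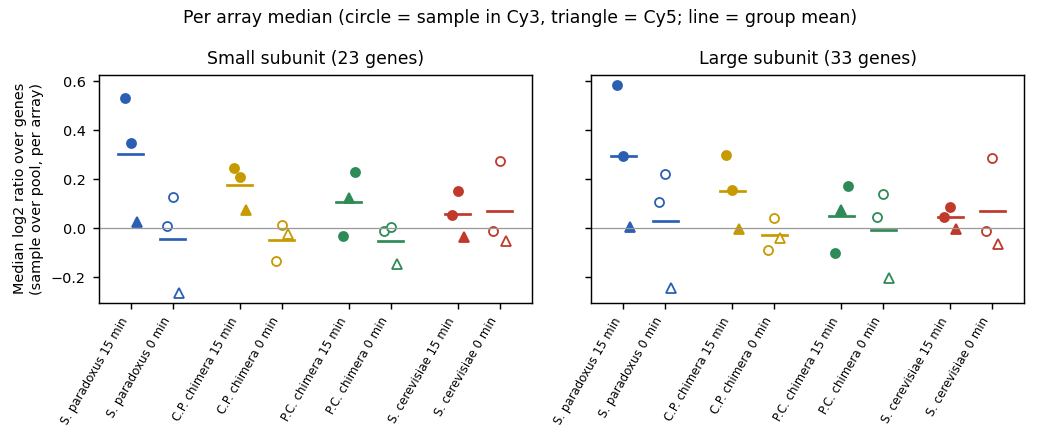
Median log2 ratio over the 23 small subunit genes (left) and the 33 large subunit genes (right) on each array (vertical axis), by allele, with 15 min (filled) left of 0 min (open); lines are the means of 3 arrays, circles Cy3 arrays and triangles Cy5 arrays. In both panels the highest array is replicate 1 of the *S. paradoxus* allele at 15 min, at 0.53 for the small and 0.58 for the large subunit, and the lowest is its replicate 3 at 0 min, at −0.26 and −0.25.

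The median over the 57 genes shows how much of this difference came from single arrays. It was 0.58, 0.33 and 0.02 on the 3 arrays of the *S. paradoxus* allele at 15 min and 0.07, 0.18 and −0.25 on its arrays at 0 min. With the *S. cerevisiae* allele it was 0.05, 0.12 and −0.00 at 15 min and −0.01, 0.27 and −0.06 at 0 min. Replicates 1 and 2 of the *S. paradoxus* allele at 15 min lay above every other array, while its replicate 3 lay among the *S. cerevisiae* arrays, and the value of 0.27 is that of the array that goes against its label. Without that array the difference between the responses had a median of 0.16 and was above 0 in 53 of 57 genes, and again 0 passed. Without replicate 1 of the *S. paradoxus* allele at 15 min the median was 0.15 (50 of 57 above 0), without its replicate 3 at 0 min it was 0.15 (50 of 57), and without its replicate 3 at 15 min it was 0.45 (55 of 57). On the Cy3 arrays alone it was 0.33 (56 of 57 above 0).

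At 15 min alone, the *S. paradoxus* allele gave higher values than the *S. cerevisiae* allele in 56 of 57 genes, against 54.8% of all genes, with a median difference of 0.23, and 0 of the 57 genes passed (0.0491% of all genes did). An unadjusted P under 0.05 was found for 8 of them, against 8.57% of all genes. Without replicate 1 of the *S. paradoxus* allele at 15 min the median difference was 0.10 (48 of 57 above 0), without its replicate 3 it was 0.38 (55 of 57), and without replicate number 1 it was 0.11 (50 of 57). The highest were *MRP13* (mS44) at 0.48 ± 0.29, *MRPL49* at 0.43 ± 0.27 and *MRPL15* (mL57) at 0.40 ± 0.23 (SE), and the lowest were *MRP4* at −0.02 ± 0.12, *MRPL33* (uL30) at 0.04 ± 0.16 and *MRPL39* at 0.06 ± 0.19 (SE). At 0 min the median difference was −0.06, 15 of 57 genes were above 0 (53.3% of all genes were), and 0 passed. An unadjusted P under 0.05 at 0 min was found for 2 of the 57 genes (3.51%), against 2.85% of all genes. Without the array that goes against its label the median difference at 0 min was 0.05 and 38 of 57 genes were above 0. The median difference at 0 min thus changed sign with 1 array.

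The highest differences in response were those of *MRP10*, *RSM22* and *MRP21*, all counted in the small subunit. *MRP10* (mS37) encodes a protein with a pair of CX9C motifs of the kind oxidized on import. With the *S. paradoxus* allele its arrays read 0.47, 0.15 and 0.10 at 15 min and −0.08, 0.13 and −0.47 at 0 min, and with the *S. cerevisiae* allele −0.20, −0.08 and 0.16 at 15 min and 0.16, 0.67 and 0.27 at 0 min. The times pointed in opposite directions, with a response of 0.38 ± 0.18 with the *S. paradoxus* allele and −0.40 ± 0.18 with the *S. cerevisiae* allele (SE), neither past the test, and a difference of 0.79 ± 0.26 (SE, adjusted P = 0.451). The C.P. chimera gave 0.45 and the P.C. chimera −0.06. The P.C. value is small beside the standard errors of 0.18, so its side of 0 is not settled and no split by coding region can be read from it. The coding region effect in response had a smallest adjusted P of 0.711 over the 57 genes (limma). In the test of all 4 responses together *MRP10* had an adjusted P of 0.80.

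The difference was 0.63 ± 0.22 for *RSM22* and 0.62 ± 0.20 for *MRP21* (SE, adjusted P = 0.451 for both). *MRP21* read 0.37, 0.40 and 0.22 at 15 min and −0.55, −0.12 and −0.49 at 0 min with the *S. paradoxus* allele. With the *S. cerevisiae* allele it read 0.01, 0.12 and −0.04 at 15 min and −0.36, 0.07 and 0.10 at 0 min. Without the array that goes against its label the differences of *MRP10*, *RSM22* and *MRP21* were 0.64, 0.48 and 0.56. At the low end stood *RSM7* (uS7) at 0.06 ± 0.25, *MRPS18* (uS11) at 0.05 ± 0.20 and *MRP4* at −0.08 ± 0.17 (SE).

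The tests over all 4 alleles also made no call among the 57 genes. The allele effect over both times had 0 of 57 (0.0737% of all genes), with 0 at an unadjusted P under 0.05, although 5.9% of all genes were under that limit. The smallest adjusted P was 0.987, for *RSM25*, followed by *MRPL6* (uL6) and *MRP51*, the counterpart of bacterial S1. The allele by time effect had 0 of 57 (0.0% of all genes), with *MRP10* and *MRP21* the 2 genes (3.51%) at an unadjusted P under 0.05, against 5.35% of all genes. Split by region, neither the coding region, the 5′ noncoding region nor their combination passed for any of the 57 genes, over both times or in response. Among all genes, 0.0491% passed for the coding region and 0.0246% for the combination over both times, and 0 in response. The response was higher with the *S. paradoxus* than with the *S. cerevisiae* coding region in 54 of 57 genes (median 0.18), against 48.6% of all genes, with 3 (5.26%) at an unadjusted P under 0.05, against 6.66% of all genes. It was higher with the *S. paradoxus* than with the *S. cerevisiae* 5′ noncoding region in 52 of 57 genes (median 0.10), against 53.1% of all genes, with 0 under that limit, against 1.11% of all genes. Without the array that goes against its label the coding region difference was above 0 in 52 of 57 genes (median 0.13) and the noncoding region difference in 41 of 57 (median 0.05). The study's own model (analysis of variance) was also fitted to the 4073 named genes. It counts each feature as an observation and uses P under 0.01 without adjustment. Time was called in 32 of the 57 genes (56.1%, against 81.4% of all genes), allele in 0 (against 12.3%) and allele by time in 4 (7.02%, against 11.6%). The study queried more open reading frames and estimated its false discovery rate by permuting sample labels, which was not repeated here.

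The mitochondrial ribosomal protein genes varied together among arrays of the same group. After the group means were removed, the median correlation over 1596 pairs of the 57 genes was 0.54 across the 24 arrays, and between these genes and other genes it was −0.04. Within the small subunit the median was 0.48, within the large subunit 0.58 and between the subunits 0.53, so pairs from different subunits were about as alike as pairs from the same one. *MRP8*, which is in neither subunit, had a median of 0.73 with the other 56 genes, *MRPL38* 0.77 and *MRPL49* 0.77. These points share the arrays, the pool and the dye. Pooled over the alleles, Cy5 arrays read lower than Cy3 arrays at both times. The median over the 57 genes was 0.02 on the 4 Cy5 arrays and 0.18 on the 8 Cy3 arrays at 15 min, and −0.13 and 0.04 at 0 min. The Cy5 array was the lowest of its group except in the P.C. chimera at 15 min and the C.P. chimera at 0 min. There it read 0.09 and −0.03, and the lowest Cy3 array −0.07 and −0.12. The part of dye in the shared variation was not tested. With dye as a term in the model, 32 of the 57 genes rose and 4 fell in the mean response, and on the Cy3 arrays alone 31 rose and 5 fell. The shares of all genes called in these fits are not given here, so the counts do not show a trait of the 57 genes.

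Other genes of mitochondrial translation were set beside the ribosomal proteins as lists, with no test between lists. Their counts stand against 39.5% of all genes that rose and 39.6% that fell, and small lists with counts near these shares say nothing of the list. Of 6 further proteins of the mitochondrial ribosome with other names, 3 rose and 0 fell (median 0.11), from *NAM9* at −0.03 and *RML2* at 0.04 to *PET123* at 0.33 and *IMG2* at 0.34. Of 8 translation factors, 6 rose and 0 fell (median 0.54). *MEF2* and *MRF1*, which act when ribosomes are recycled and when translation ends, rose by 0.71 and 0.65, while the elongation factor genes *TUF1* and *MEF1* were at −0.06 and −0.02 and did not pass. Of 13 genes that charge mitochondrial tRNAs, 12 rose and 1 fell (median 0.40). They comprise 12 aminoacyl tRNA synthetases, of which 11 rose and 1 fell, and *PET112*, for a subunit of the amidotransferase that makes glutaminyl tRNA, which rose by 0.67. Among the synthetases *MSF1* was highest at 1.01 and *DIA4* next at 0.88, *MST1* was at 0.20, and *ISM1*, the gene that fell, was at −0.46.

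Translational activators, which help the translation of single mitochondrial mRNAs, changed in both directions. Of 16, 11 rose and 4 fell (median 0.33), from *CBP1* at −0.84 and *PET309* at −0.71 to *CBP6* at 0.64 and *PET494* at 0.88. Assembly factors of the mitochondrial ribosome and its membrane partners were split as well, with 4 of 11 up and 4 down (median 0.00). The GTPase gene *MTG1* and the rRNA methyltransferase gene *MRM2* rose by 0.77 and 0.71, and the RNA helicase gene *MSS116* and the insertase gene *OXA1* were lower, at −0.68 and −0.35, both past the test. The tRNA modification genes *MTO1* and *MSS1*, whose proteins act as a complex, were at −0.64 and 0.55, both past the test in opposite directions. Of 10 genes for mitochondrial transcription and DNA maintenance, 3 rose and 5 fell (median −0.15), with the helicase genes *PIF1* and *SUV3* lowest at −0.43 and −0.39 and *HMI1* and *MIP1* highest at 0.38 and 0.31.

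**Figure D5:**
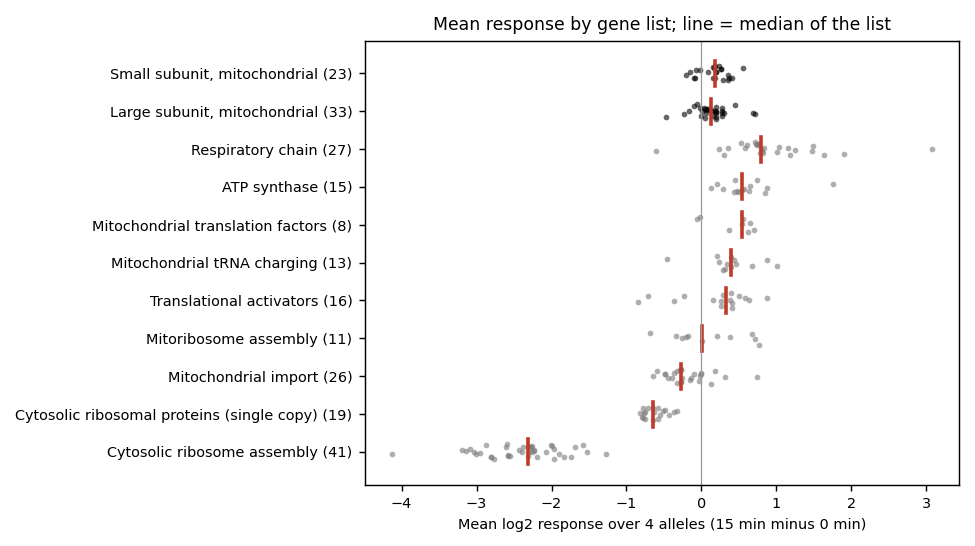
Mean response over the 4 alleles (horizontal axis, log2, 15 min minus 0 min) of the genes of each list, 1 point a gene, with the number of genes in brackets and a red bar at the median; the mitochondrial ribosomal subunits are in black at the top. Their medians of 0.18 and 0.13 lie between the respiratory chain at 0.80 and cytosolic ribosome assembly at −2.31.

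Of 27 genes of the respiratory chain, 25 rose and 1 fell (median 0.80). The 18 of them for the bc1 complex with cytochrome c1 and for cytochrome c oxidase, which contain products of mitochondrial translation, all rose (median 0.77). Of the other 9, for succinate dehydrogenase, the NADH dehydrogenases and cytochrome c, which contain none, 7 rose and 1 fell (median 1.19). The highest and lowest genes of the list are all of the second kind, with *CYC7*, the stress form of cytochrome c, at 3.08 and the external NADH dehydrogenase gene *NDE2* at 1.90. The gene that fell was *NDE1* at −0.60, and *CYC1* at 0.23 did not pass. Of 15 genes of the ATP synthase and its inhibitors, 13 rose and 0 fell (median 0.54), with *STF1*, for an inhibitor, at 1.76 and *ATP7* at 0.88, and *ATP1* and *ATP2* at 0.13 and 0.21 short of the test. The cytosolic ribosome moved the other way. All 19 of its single-copy ribosomal protein genes fell (median −0.65), from *RPS13* at −0.82 and *RPL25* at −0.79 to *RPS31* at −0.37 and *RPS20* at −0.33, and so did all 41 genes of its assembly (median −2.31), from *DHR2* at −4.13 and *DBP2* at −3.19 to *KRR1* at −1.52 and *SPB4* at −1.27.

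Of 26 genes of mitochondrial protein import, which brings in the ribosomal proteins, 3 rose and 15 fell (median −0.27), with *TIM23* and *TOM5* lowest at −0.65 and −0.59 and *MDM10* and *MAS2* highest at 0.75 and 0.31. Of 7 genes for regulators known to act on mitochondrial genes, 3 rose and 0 fell (median 0.05). *HAP5* and *HAP2*, subunits of the Hap complex that activates respiratory genes, rose by 1.45 and 0.92. Of the other subunits of that complex, *HAP4* rose by 0.24 and *HAP3* was at 0.01 and did not pass. *PUF3* was at −0.25 and *HAP1* at −0.08, both short of the test. In none of these lists did the difference in response between the *S. paradoxus* and *S. cerevisiae* alleles pass the test for any gene.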

How the data were processed

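RNA of 24 samples was compared with a pool of all samples on Agilent yeast arrays. The authors deposited a log2 ratio per feature, sample to pool, after median normalization of each array. Features were linked to gene symbols by their position on the grid, a link inferred from the values, since replicate features then correlated at a median of 0.928, and at −0.0064 when equal numbers were paired. Of 15744 features, 7592 had no gene symbol and were not used, and 0 columns of sample values were left out.

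Values were averaged over the features of a gene and centered on the gene median of the array. The main model was that of limma (version 3.58.1, R 4.3.3), with 8 group means and no pairing, for 4071 genes that had values on 2 or more arrays in each group. P values were adjusted by Benjamini-Hochberg over these genes, with a limit of 0.05. Signal intensities were not used, so the number of arrays limits the precision. Python 3.11.15 with numpy 2.4.6, pandas 2.3.3, SciPy 1.17.1 and matplotlib 3.10.9 served for the study's analysis of variance, the tables and the plots. The fits were tested on simulated data.

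The genes and the 13 lists of other genes were chosen with earlier results of these data known. Subunit, family and descent were assigned by hand from general knowledge. Named are the 5 highest and 5 lowest mean responses in each subunit, the 3 smallest P in each F-test, the 3 highest and 3 lowest differences of the *S. paradoxus* from the *S. cerevisiae* allele (15 min, response), called genes with mixed signs, *MRP7*, *MRP20*, *MRP49* and *MRP8*, and the 2 highest and 2 lowest of each list. *MRPL7*, *MRPL9*, *PET112*, *HAP3* and *HAP4* were named, and the lists of tRNA charging and the respiratory chain divided, after their values were seen. Alternatives were a dye term, Cy3 arrays alone, blocks by replicate number or culture, the values as deposited, quantile normalization, array weights, a robust fit, a median in place of the mean over features, genes with complete values, a stricter threshold, the study's model, and leaving out each array and replicate number. A search of promoter and protein sequences was not run.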

Additional observations from a re-analysis of the deposited data

How the results depend on the processing

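The median mean response over the 57 genes ran from 0.12 to 0.20 with arrays left out. It and the medians over each subunit and each other list moved by less than 1 SD between arrays under every alternative run. So did the medians within an allele, although these changed by over 1.5 times without single arrays. This is a wide limit, since the SD of the per array median of the 57 genes was 0.17, about as large as the median response of 0.17. A median could come close to 0 within it, as that of the P.C. chimera did without replicate number 3, at 0.004. The counts of genes that rose and fell in the mean response stayed within 1.5 times except as given here. At an adjusted P of 0.01, 1 gene fell. Leaving out single arrays or replicate numbers gave 12 to 30 genes that rose and 0 to 5 that fell. The counts in this section cover the 57 genes alone, and the shares of all genes called under each alternative are not given.

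Counts within an allele moved more. With the *S. paradoxus* allele, 27 genes rose with a dye term, 30 with array weights and 8 at 0.01, and 1 fell with array weights (5 to 27 rose with arrays left out). With the C.P. chimera, 15 rose with a dye term, 22 on Cy3 arrays, 5 as deposited, 23 with array weights, 16 in a robust fit and 1 at 0.01, and 1 fell on Cy3 arrays and with array weights (1 to 24 rose and 0 to 1 fell with arrays left out). With the P.C. chimera, 2 rose as deposited, 9 in a robust fit and 2 at 0.01, and 1 fell with a dye term, 2 on Cy3 arrays and 1 with array weights (1 to 6 rose and 0 to 4 fell with arrays left out). With the *S. cerevisiae* allele, 5 rose with a dye term, 4 on Cy3 arrays, 1 as deposited, 4 after quantile normalization, 6 with array weights, 5 in a robust fit and 1 at 0.01, and 5, 5, 6, 5 and 8 fell with a dye term, on Cy3 arrays, as deposited, with array weights and in a robust fit, and 0 at 0.01 (1 to 5 rose and 0 to 5 fell with arrays left out).

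Replicate numbers were not taken to pair the arrays in the main model. After group means were removed, same-numbered arrays at 15 and 0 min correlated at 0.367 to 0.708 with the *S. cerevisiae* allele and 0.484 to 0.762 with the *S. paradoxus* allele. The values were −0.024 to 0.41 with the C.P. chimera and −0.462 to −0.005 with the P.C. chimera. These values cannot decide on pairing, because replicate number and dye coincide except in the P.C. chimera at 15 min. There the Cy5 array is replicate 2, and it correlated at 0.422 with the Cy5 array at 0 min, replicate 3. With the replicate number as a block, 30 genes rose and 4 fell in the mean response, 14 rose with the C.P. chimera, 1 fell with the P.C. chimera and 4 rose with the *S. cerevisiae* allele. With the culture as a block, 30 rose and 4 fell in the mean response, 7 rose and 2 fell with the P.C. chimera, and 4 rose and 5 fell with the *S. cerevisiae* allele.

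Between the full length alleles at 15 min, 2 genes were called on Cy3 arrays, 19 with array weights and 5 in a robust fit, and in response 1 with array weights and 3 in a robust fit. The allele effect had 1 call on Cy3 arrays, 4 with array weights, 3 in a robust fit and 0 to 1 with arrays left out, and allele by time 1 with array weights and 4 in the study's model. The coding by noncoding effect over both times had 3 calls on Cy3 arrays, 1 with array weights, 1 in a robust fit and 0 to 7 with arrays left out, and the coding effect in response had 1 in a robust fit and 0 to 6 with arrays left out. Array weights gave replicate 2 of the *S. paradoxus* allele at 15 min a weight of 4.405 and its Cy5 array, replicate 3, 0.203. The cause of these shifts was not tested.

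Values near 0 changed sign without passing the test. *MRP13* was at 0.0244, 0.0402 and 0.0113 on Cy3 arrays, with array weights and in a robust fit, *MRPL15* at −0.00144, −0.0326, −0.0283, −0.0312 and −0.0513 on Cy3 arrays, as deposited, after quantile normalization, with array weights and in a robust fit, and *RML2* at −0.00588 as deposited. With arrays left out, *MRP13* ran from −0.0847 to 0.0732, *MRPL15* from −0.0657 to 0.0836, *MRPL33* from −0.10 to 0.114, *MRPL37* from −0.19 to 0.00664, *RSM26* from −0.13 to 0.00968 and *MEF1* from −0.0649 to 0.00395.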
